A study of Mus musculus with 2 samples.

Results

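The Slc25 genes encode the mitochondrial carrier family, and 47 of them were followed here among the 55450 genes listed in both kinds of deposited table. A gene was a member when its symbol starts with Slc25a and at least 1 of its transcripts is typed protein_coding, which holds for 21901 genes in all. The rule used names and gene types, not measured values.

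Total RNA was sequenced from gastrocnemius, the large calf muscle, of adult female mice aged 8 to 10 months. The mice came from a cross of 5xFAD with CAST. 5xFAD is a mouse model of Alzheimer's disease that carries mutated human transgenes, including APP, under neural Thy1 promoter elements, and CAST is a wild-derived inbred strain. Each of the 2 libraries was made from 300 ng of RNA, per the labels. They are numbered as biological replicates 1 and 2 and called library 1 and library 2 below. Both carry 1 donor identifier, so the number of animals is not given, and the spread between the libraries may be technical. The labels do not say whether these offspring carried the transgenes, and no control genotype, strain or tissue is among the samples. The data therefore give levels within this muscle, with mean ± SD over n = 2 libraries, and no comparison between groups.

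Library 1 held 35594289 expected counts and library 2 held 34541905. The 5 muscle fibre markers examined (Acta1, Ckm, Myh4, Pvalb, Ttn) together held 48441 and 56780 TPM, where TPM is the unit of a gene's share of a library's transcripts, corrected for length. Markers of blood, fat, connective tissue and vessels were also present: the 4 erythroid genes summed to 165 and 166 TPM, the 3 fat cell genes to 77.8 and 96.6 TPM, the 3 fibroblast genes to 125 and 138 TPM, and the 3 endothelial genes to 23.8 and 25.2 TPM. The 3 macrophage genes summed to 7.94 and 7.25 TPM and the 2 Schwann cell genes to 22.8 and 22.6 TPM. The satellite cell gene Pax7 was at 0.20 and 0.58 TPM, and the 2 testis genes were at 0. The liver genes Alb and Apoa1 had 254 and 35 counts in library 1 but 0 and 1 in library 2. In bulk tissue, more cells of a type and more RNA per cell cannot be told apart, and the part of these cell types in the levels below was not tested. Deposited TPM was higher in library 2 for the typical gene, by 0.17 on the log2 scale. An SD of a gene's TPM therefore holds this shift as well as the gene's own spread, and a small one is not close agreement in scaled counts.

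Mitochondrial carriers are small membrane proteins built from a repeated pair of membrane-spanning helices. Most sit in the inner mitochondrial membrane and exchange nucleotides, phosphate, amino acids, carboxylic acids, cofactors or metal ions between matrix and cytosol. In skeletal muscle, ADP/ATP exchange and phosphate import supply the ATP synthase, and the aspartate/glutamate and oxoglutarate carriers form the membrane part of the malate-aspartate shuttle, which moves reducing equivalents into the matrix.

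The family was concentrated in a few genes. Its summed level was 2029 TPM in library 1 and 2239 TPM in library 2, or 0.519% and 0.502% of the TPM of all nuclear genes with a protein_coding transcript (0.510 ± 0.0119%). At TPM of at least 1 in both libraries were 34 of 47 members, against 44.7% of all genes with a protein_coding transcript. At TPM of at least 10 in both were 14 members. The 4 members above 100 TPM, Slc25a4, Slc25a3, Slc25a12 and Slc25a11, held 86.3% and 85.6% of the family's TPM. Below TPM 1 in both libraries were 10 members, and Slc25a24, Slc25a40 and Slc25a14 lay on opposite sides of it. Along the order of mean levels, the 2 values of a gene lay wholly above those of the next gene for each of the first 4 members, and for 15 of all 46 neighbouring pairs.

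**Figure D1:**
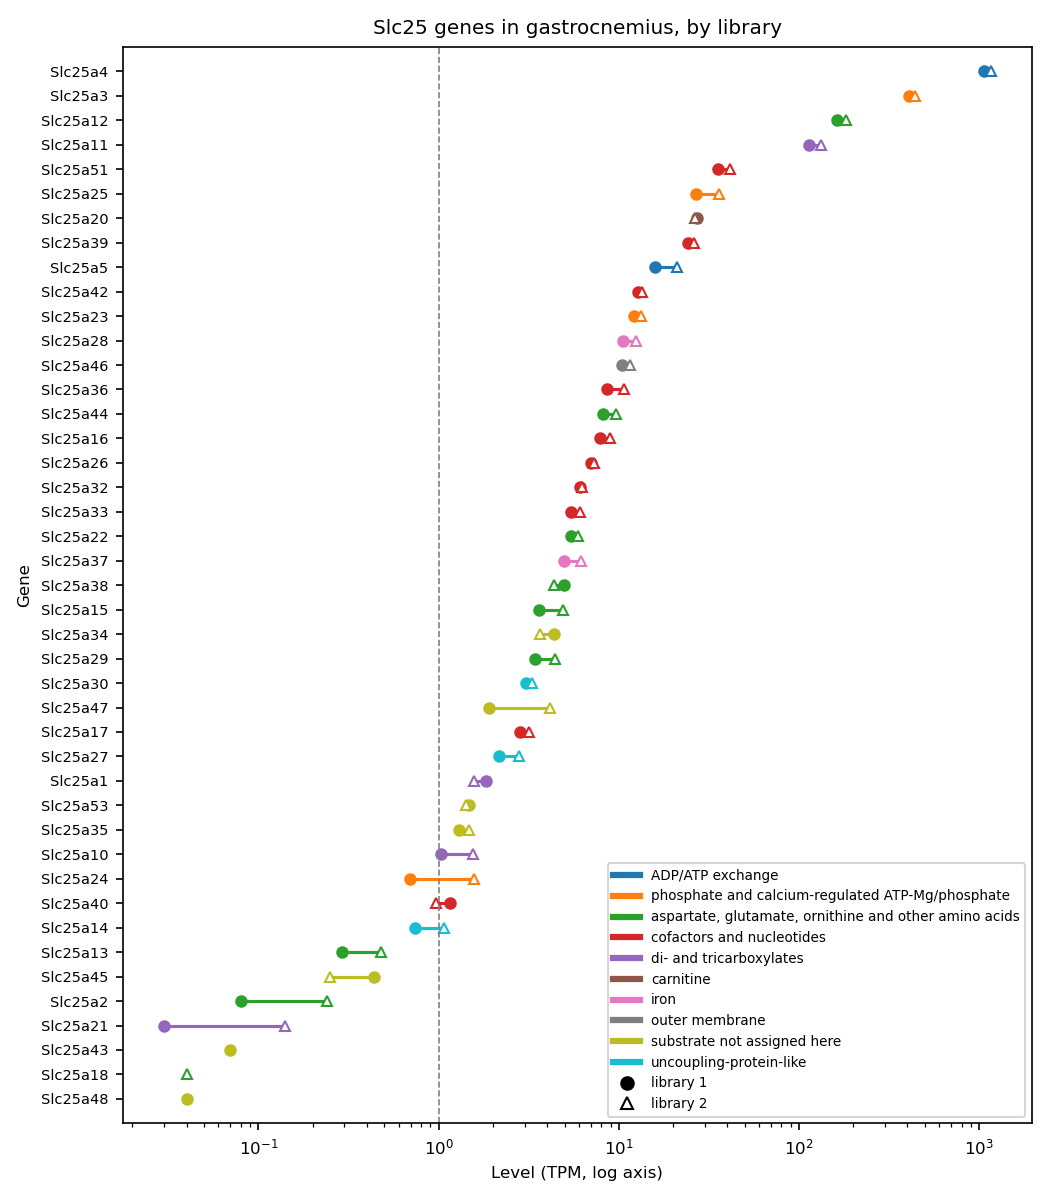
Level of each Slc25 gene in TPM (log axis) in library 1 (filled circles) and library 2 (open triangles), coloured by what the carrier transports; the dashed line marks TPM 1. A value of 0 has no point, and the 3 members at 0 in both libraries and 1 other member are not shown. Slc25a4 stands at the top at 1068 and 1159 TPM, and 4 members lie above 100 TPM.

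ADP/ATP exchange held the largest share, 53.1 ± 0.513% of the family's TPM. Slc25a4 (ENSMUSG00000031633.4, mm10 chr8:46206797-46211284), the heart and muscle form of the ADP/ATP carrier, was at 1068 TPM in library 1 and 1159 TPM in library 2, from 58541 and 55158 counts. It ranked 30 and 32 among the 21888 nuclear genes with a protein_coding transcript, and alone held 52.2 ± 0.622% of the family. Slc25a5 (chrX:36795651-36798807), the form found in most tissues, was at 15.8 and 20.9 TPM. Slc25a4 was thus higher by 5.93 ± 0.20 on the log2 scale, and held 98.4 ± 0.221% of the TPM of the 3 ADP/ATP carriers. Slc25a31, the testis form, had 0 counts in both libraries, which allows up to 3 counts, or 0.0843 and 0.0869 CPM (counts relative to the library total).

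Of the stretches of 31 bases in the leading transcript of Slc25a5, the one with the highest TPM, 67.1% also occur in transcripts of 13 other genes. Reads from these stretches fit several genes, so the level of Slc25a5 depends on how the quantifiers shared them. The annotated pseudogene Slc25a5-ps had 1 count in library 1 and 0 in library 2. Among the other members, Slc25a40, Slc25a36 and Slc25a33 shared 14.0%, 13.6% and 13.5% of such stretches with another gene, and 24 of 47 members shared none. In all, 13 members shared over 5%, among them Slc25a25 at 10.7% and Slc25a3 at 8.39%.

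Phosphate import and the related ATP-Mg/phosphate carriers held 22.0 ± 0.0376%. Slc25a3 (ENSMUSG00000061904.12, chr10:91116574-91124059), the carrier that brings phosphate into the matrix, was at 406 and 442 TPM, or 19.9 ± 0.182% of the family. Slc25a4 exceeded it 2.63-fold in library 1 and 2.62-fold in library 2. The ATP-Mg/phosphate carriers with calcium-binding domains adjust the adenine nucleotide content of the matrix. Among them, Slc25a25 was at 26.9 and 36.1 TPM, Slc25a23 at 12.2 and 13.3 TPM, and Slc25a24 at 0.69 and 1.58 TPM. Slc25a41, which lacks the calcium-binding domain, had 0 counts in both. Slc25a25 exceeded Slc25a24 by 4.90 ± 0.55 on the log2 scale of TPM, and Slc25a23 exceeded it by 3.61 ± 0.76.

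Slc25a3 is known for a pair of mutually exclusive coding exons, one used in heart and skeletal muscle (exon 3A) and the other in most tissues (exon 3B). Both are printed because the transcript shares below turn on them. They are on the minus strand of mm10, exon 3A at chr10:91122207-91122331 (125 bases) in Slc25a3-206 and exon 3B at chr10:91121922-91122043 (122 bases) in Slc25a3-201 and Slc25a3-203. Each is given 5′ to 3′ with capitals for the bases that differ or have no partner in the alignment.
Slc25a3 exon 3A: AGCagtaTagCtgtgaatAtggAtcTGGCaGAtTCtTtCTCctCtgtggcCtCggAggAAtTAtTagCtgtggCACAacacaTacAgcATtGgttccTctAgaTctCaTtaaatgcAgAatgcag
Slc25a3 exon 3B: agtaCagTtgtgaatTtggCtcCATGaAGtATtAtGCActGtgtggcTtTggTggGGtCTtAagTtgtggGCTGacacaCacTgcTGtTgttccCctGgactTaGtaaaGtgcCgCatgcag
The exons shared 80 identical bases, 63.5% of 126 aligned columns.

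The muscle exon prevailed by both quantifiers, to unequal degrees. Among the Slc25a3 transcripts that hold either exon, those with exon 3A held 94.2% and 93.8% of TPM in libraries 1 and 2 by the first quantifier, the tables with the columns that RSEM writes. By the second quantifier, the tables with the columns that kallisto writes, they held 81.1% in each. In TPM of the first quantifier, transcripts with exon 3A stood at 381 and 412 and those with exon 3B at 23.2 and 27.1. The leading transcript, Slc25a3-206, held 93.5 ± 0.428% of the gene's TPM by the first quantifier and 79.8 ± 0.276% by the second, so the gap between quantifiers was far wider than the spread between libraries. Slc25a3-201 differs from Slc25a3-206 in more than this exon. It has 56 more bases at the 5′ end and 218 more at the 3′ end, so the shares rest on reads from those ends as well.

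The amino acid carriers held 9.43 ± 0.140%, most of it Slc25a12. Slc25a12 (ENSMUSG00000027010.16, chr2:71271063-71367749), the aspartate/glutamate carrier of muscle and brain, was at 163 and 183 TPM from 13653 and 13210 counts. Its paralog Slc25a13, the form that prevails in liver, was at 0.29 and 0.48 TPM from 17 and 28 counts. Slc25a12 was higher by 8.86 ± 0.40 on the log2 scale of TPM, and the few counts of Slc25a13 limit how well that ratio is known. Slc25a44, a carrier of branched-chain amino acids, came next at 8.13 and 9.66 TPM. Of the other members of the group, the glutamate carrier Slc25a22 was at 5.43 and 5.97 TPM, the glycine carrier Slc25a38 at 4.94 and 4.35, the ornithine carrier Slc25a15 at 3.60 and 4.88, and Slc25a29, a carrier of basic amino acids, at 3.42 and 4.43. The second ornithine carrier Slc25a2 had 3 and 8 counts, and the second glutamate carrier Slc25a18 had 0 and 2.

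The level of Slc25a12 was mostly that of transcripts typed otherwise than protein_coding. These held 84.0% and 83.5% of its TPM by the first quantifier and 80.0 ± 0.829% by the second. By expected counts, in which a long transcript weighs more than it does in TPM, they held 62.9 ± 0.818%. Slc25a12-207, typed nonsense_mediated_decay (a class of transcripts expected to be degraded because of an early stop codon), held 74.2% and 72.1% of TPM, from 8451 and 7963 counts. Slc25a12-206, the full-length coding transcript, stood at 26.2 and 30.3 TPM from 4983 and 4974 counts. With protein_coding transcripts alone, an alternative chosen after these shares were seen, Slc25a12 exceeded Slc25a13 by 6.87 ± 0.56 on the log2 scale.

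Slc25a12-207 (2392 bases) has 0 bases that are not also in Slc25a12-206 (6351 bases). It lacks 216 bases at the 5′ end, 3627 bases at the 3′ end, and exon 4 of the 18 exons, a coding exon of 116 bases, not a multiple of 3, at mm10 chr2:71333605-71333720 on the minus strand. The join that sets the transcripts apart is printed with 15 bases on either side and exon 4 in capitals.
Slc25a12-206: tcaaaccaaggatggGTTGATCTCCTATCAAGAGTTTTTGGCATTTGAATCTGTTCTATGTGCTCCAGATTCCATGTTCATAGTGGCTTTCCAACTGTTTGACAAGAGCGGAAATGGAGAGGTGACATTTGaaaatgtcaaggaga
Slc25a12-207: tcaaaccaaggatggaaaatgtcaaggaga
The 2 transcripts of 7 that hold exon 4 had 25.0% and 25.9% of the gene's TPM by the first quantifier and 20.2% and 21.5% by the second. Outside this join and the missing ends, reads fit both transcripts, so the shares rest on reads from the ends as well. Reads over the join were not counted separately here, and how often exon 4 is skipped was not tested.

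**Figure D2:**
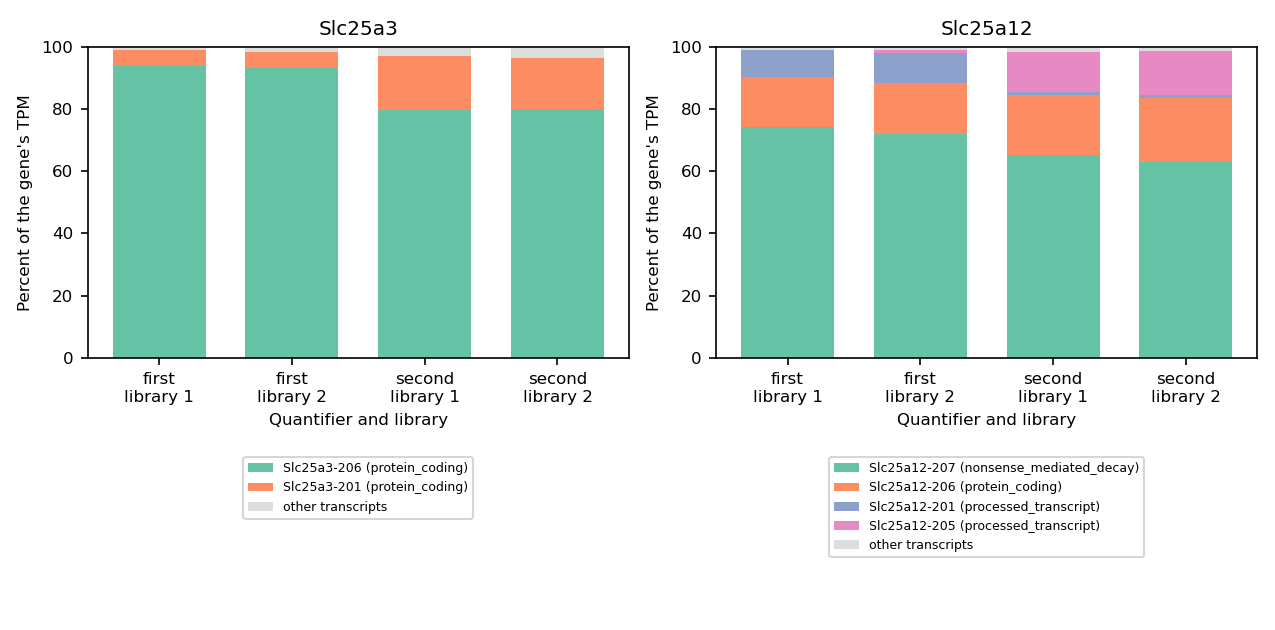
Percent of the TPM of Slc25a3 (left) and Slc25a12 (right) held by each transcript in each library, by the first quantifier (left pair of bars) and the second (right pair); transcripts under 5% in all 4 are pooled as other. Slc25a3-206 holds 93.5% by the first quantifier and 79.8% by the second, and Slc25a12-207 holds most of Slc25a12 by both.

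Across the family, transcripts not typed protein_coding held 10.1% and 9.80% of TPM, against 12.0% and 11.8% for all nuclear genes with a protein_coding transcript. By the second quantifier the family stood at 8.79% and 8.67%, and all such genes at 13.7% and 13.6%. Slc25a12 supplied most of the family's share. Among members at TPM of at least 1, Slc25a53 and Slc25a47 also had most of their TPM outside protein_coding transcripts, at 95.9% and 89.5% for Slc25a53 from 65 and 61 counts. Slc25a37, mitoferrin 1, had 49.8% and 45.6% by the first quantifier and 60.1% and 51.1% by the second. Slc25a4, Slc25a3 and Slc25a11 had at most 3.43%.

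**Figure D3:**
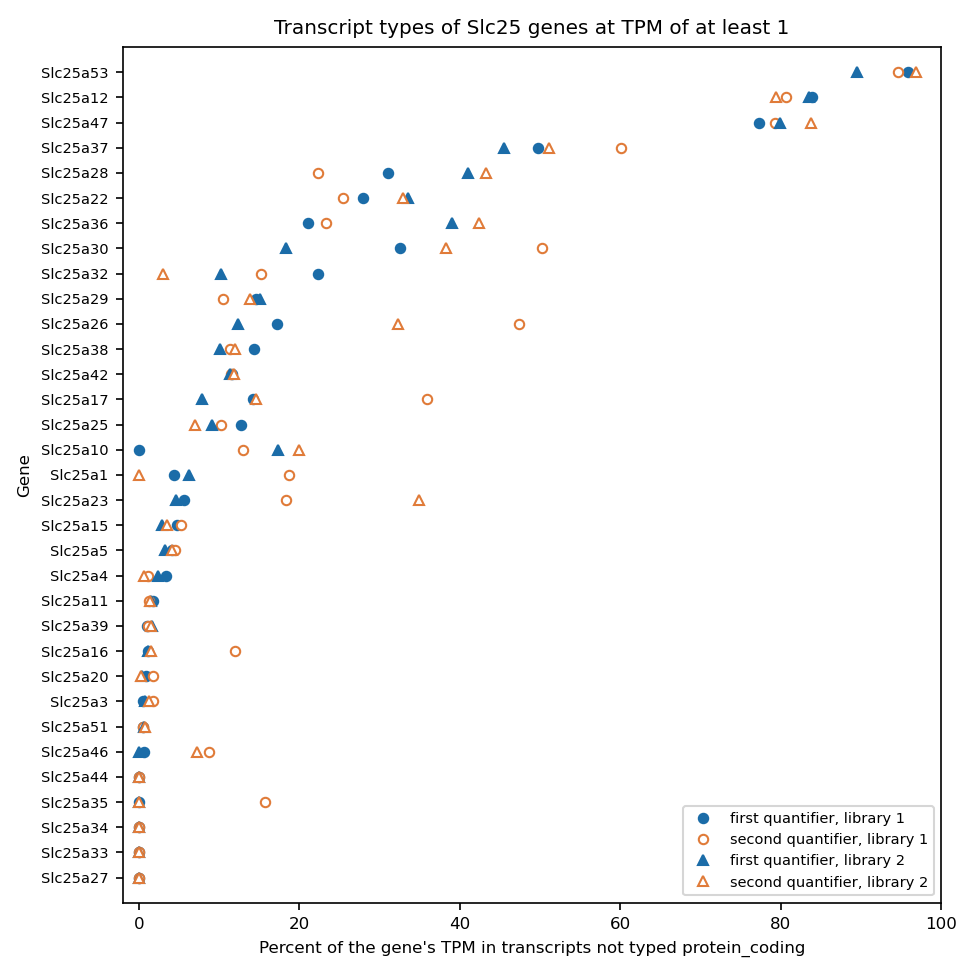
Percent of each gene's TPM in transcripts not typed protein_coding, for the 34 Slc25 genes at TPM of at least 1 in both libraries, by the first quantifier (filled blue) and the second (open orange), with circles for library 1 and triangles for library 2; 1 of them is not shown. Slc25a53, Slc25a12 and Slc25a47 lie at 77.4% or higher in all 4 values, and Slc25a4, Slc25a3 and Slc25a11 lie near 0.

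The carboxylate carriers held 5.88 ± 0.228%. Slc25a11 (chr11:70644196-70647479), the oxoglutarate/malate carrier and the other membrane step of the malate-aspartate shuttle, was at 113 and 132 TPM from 5290 and 5281 counts. Slc25a1, the citrate carrier that supplies cytosolic fat synthesis, was at 1.84 and 1.58 TPM, and Slc25a10, the dicarboxylate carrier, at 1.03 and 1.55 TPM. Slc25a11 exceeded Slc25a10 by 6.60 ± 0.26 on the log2 scale. Slc25a21, the oxodicarboxylate carrier, had 1 and 3 counts.

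The 11 carriers of cofactors and nucleotides held 6.26 ± 0.144%, and 10 of them were at TPM of at least 1 in both libraries. Slc25a51, the mitochondrial NAD carrier, led them at 35.6 and 41.3 TPM. Slc25a39, which carries glutathione, followed at 24.3 and 26.3 TPM and exceeded its paralog Slc25a40, at 1.15 and 0.97 TPM, by 4.58 ± 0.26 on the log2 scale. Slc25a42, a carrier of coenzyme A, was at 12.9 and 13.4 TPM. The pyrimidine nucleotide carriers Slc25a36 and Slc25a33 were at 8.60 and 10.7 TPM and at 5.43 and 6.06 TPM. The S-adenosylmethionine carrier Slc25a26 was at 7.05 and 7.29 TPM, the folate or flavin carrier Slc25a32 at 6.13 and 6.24 TPM, Slc25a16 at 7.85 and 8.98 TPM, and the peroxisomal cofactor carrier Slc25a17 at 2.82 and 3.19 TPM.

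Slc25a20 (chr9:108662088-108684641), which exchanges carnitine and acylcarnitine and so brings fatty acids into the matrix, was at 27.3 and 26.6 TPM. The mitoferrins, which import iron, were at 10.6 and 12.4 TPM for Slc25a28 and at 4.94 and 6.19 TPM for Slc25a37. On the scale of TPM Slc25a28 was the higher by 1.05 ± 0.07 (log2), whereas it had fewer counts, 463 and 443 against 580 and 648, a reversal between the scale per length and raw counts. The mitoferrin Slc25a37 is known for its role in red cell precursors, and the erythroid markers Hbb-bs and Hba-a1 were at 87.6 ± 0.226 and 76.7 ± 0.530 TPM. Their part in the level of Slc25a37 was not tested.

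Slc25a46, an outer membrane protein that acts in mitochondrial fusion and fission, was at 10.5 and 11.5 TPM. The uncoupling-protein-like carriers were low, with Slc25a30 at 3.04 and 3.28 TPM, Slc25a27 at 2.17 and 2.81 TPM and Slc25a14 at 0.74 and 1.07 TPM. Among the 8 members whose substrate is not assigned here, Slc25a34 was at 4.35 and 3.64 TPM and Slc25a47 at 1.91 and 4.14 TPM, so that Slc25a34 led in library 1 and Slc25a47 in library 2. They were followed by Slc25a53 at 1.48 and 1.42 TPM and Slc25a35 at 1.29 and 1.48 TPM. Slc25a45 had 16 and 14 counts, Slc25a43 had 2 and 0, Slc25a48 had 4 and 0, and Slc25a54 had 0 in both.

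Between the libraries, the members differed about as much as all genes tested, with a median absolute log2 ratio of 0.106 against 0.113. Ratios were taken from expected counts after TMM scaling (the trimmed mean of M values, which sets the bulk of genes to no change), since deposited TPM was higher in library 2 for the typical gene by 0.17 on the log2 scale. Of 36 members with mean TPM of at least 1 and at least 100 counts in all, 1 lay past 1.5-fold, Slc25a47, against 3.29% of all genes tested. As log2 of library 2 over library 1, the median ratio was 0.0073 for these members and 0.0075 for all genes tested, with 19 members above 0 and 17 below. The 95% counting interval, which covers counting error only, lay above 0 for 5 members, below 0 for 6 and spanned 0 for 25.

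Slc25a25 was the well-counted member with the clearest shift, at 1979 and 2369 counts and a log2 ratio of 0.30 (0.21 to 0.39). Slc25a34 moved the other way, from 340 to 246 counts, a log2 ratio of -0.43 (-0.67 to -0.19). For Slc25a20 the ratio was -0.20 (-0.31 to -0.09), for Slc25a15 0.26 (0.06 to 0.46) and for Slc25a5 0.23 (0.06 to 0.40). The 4 most abundant members differed by at most 0.05, with -0.05 (-0.06 to -0.03) for Slc25a4, -0.05 (-0.08 to -0.01) for Slc25a3, -0.01 (-0.04 to 0.03) for Slc25a12 and 0.04 (-0.02 to 0.09) for Slc25a11.

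**Figure D4:**
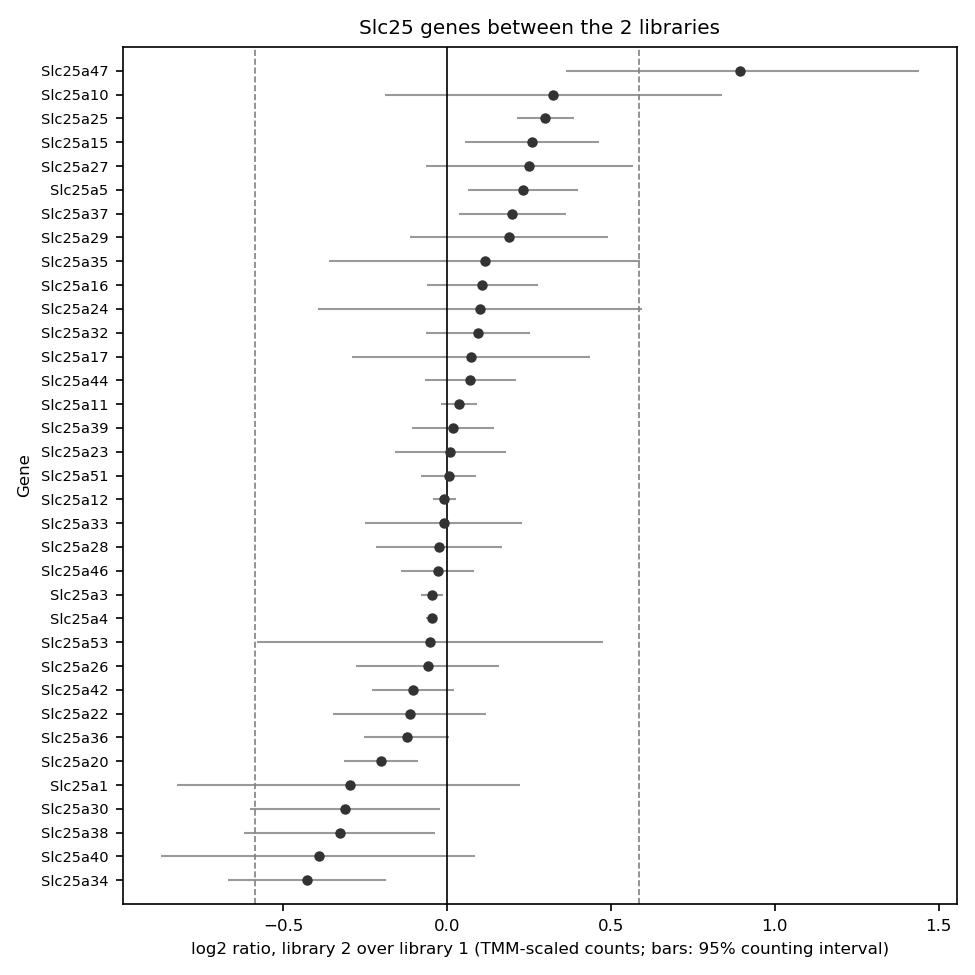
Log2 ratio of library 2 over library 1 for the 36 Slc25 genes with mean TPM of at least 1 and at least 100 counts in all, from TMM-scaled counts; bars are 95% counting intervals, the solid line marks 0 and the dashed lines mark 1.5-fold; 1 of them is not shown. Slc25a47 at 0.89 lies outside the dashed lines and the other genes lie inside.

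Slc25a47 (ENSMUSG00000048856.9, chr12:108836046-108856815), a carrier known mainly from liver, had 47 counts in library 1 and 85 in library 2. Its log2 ratio was 0.89 (0.36 to 1.44). The liver genes Alb and Apoa1 had 254 and 35 counts in library 1 and 0 and 1 in library 2. Any part of liver RNA in the counts of Slc25a47 was not tested. Slc25a47 has 5 transcripts. The 3 non-coding ones, which start within 2 kb of the neighbouring carrier gene Slc25a29, held 77.4% and 79.9% of its TPM and 27.5 and 52.6 of its counts. Slc25a47-201, the coding transcript with the rest of the counts, starts 15246 bases from the start of Slc25a29 and had 19.5 and 32.4. Over protein_coding transcripts alone, an alternative chosen after these values were seen, the log2 ratio was 0.79 with an interval that spanned 0 (-0.07 to 1.69). Slc25a29 itself had 175 and 194 counts and a log2 ratio of 0.19 (-0.11 to 0.49), also spanning 0.

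Slc25a29 and Slc25a47 are transcribed away from each other, from starts with 162 bases between them at mm10 chr12:108835884-108836045. The stretch is printed because Slc25a47-203 and Slc25a47-205 start beside it, 163 and 199 bases from the start of Slc25a29. In libraries 1 and 2, Slc25a47-203 held 11.6% and 15.7% of the gene's TPM from 3.33 and 8.67 counts. Slc25a47-205 held 43.7% and 43.6% from 14.7 and 27.3 counts. The third non-coding transcript, Slc25a47-204, starts at 1181 bases. The printed stretch is taken from RefSeq's GRCm38.p6 promoter of Slc25a29, on the strand of Slc25a29 (minus), with capitals for matches to CCAAT or its reverse complement ATTGG.
Between Slc25a29 and Slc25a47: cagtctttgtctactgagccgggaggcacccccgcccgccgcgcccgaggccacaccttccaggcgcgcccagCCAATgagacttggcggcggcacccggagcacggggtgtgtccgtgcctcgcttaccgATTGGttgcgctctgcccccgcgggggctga
The stretch had a GC content of 71.6% and 18 CpG dinucleotides. It held 2 matches, 1 on each strand, and 25.8% of the 32851 RefSeq promoter windows of 162 bases that end at a gene start held at least 1, while 6.55% held at least 2. A match is a description of the letters, not a bound site.

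**Figure D5:**
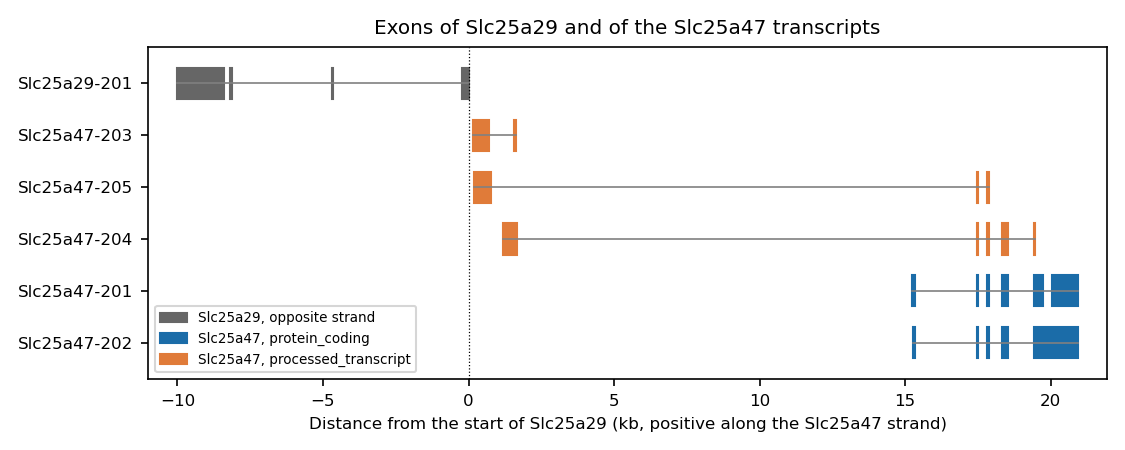
Exons (boxes) of Slc25a29-201 (grey, opposite strand) and of the 5 Slc25a47 transcripts (blue, protein_coding; orange, processed_transcript) by distance from the start of Slc25a29 in kb. The 3 orange transcripts start within 2 kb of Slc25a29, while the blue ones start 15246 bases or more away.

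The quantifiers gave similar levels for whole genes and less similar ones for transcripts. After removal of the median ratio over all genes, 0 of 33 members tested lay past 1.5-fold between the second quantifier and the first, against 4.06% of all genes tested. The widest gaps on the log2 scale were 0.36 for Slc25a53, 0.33 for Slc25a1 and -0.32 for Slc25a51. The leading transcript differed between the quantifiers in 5 of 32 members with at least 2 transcripts, against 17.1% of such genes in all. Slc25a51, Slc25a25, Slc25a42 and Slc25a1 were among them. Taken by library, the count was 4 in library 1 and 3 in library 2. The clearest case was Slc25a42. By the first quantifier Slc25a42-201 held 88.3% and 80.6% of TPM, and by the second Slc25a42-202 held 88.6% and 87.7%, although these transcripts have 3081 bases in common and only 115 found in Slc25a42-202 alone. For Slc25a51, Slc25a51-205 held 38.4% and 49.1% by the first quantifier and 3.17% and 0% by the second.

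The partners of the carriers were read from lists of pathway genes chosen beside the family. The SDs of their TPM hold the library-wide shift in deposited TPM as well. Of 49 listed genes 48 matched, 44 were at TPM of at least 1 in both libraries, and the same number were tested between libraries with 0 past 1.5-fold, against 3.29% of all genes tested. All 3 outer membrane channels were present, led by Vdac1 at 523 ± 65.0 TPM and Vdac3 at 207 ± 21.4 TPM. The ATP synthase and creatine kinase list was led by Atp5b at 1311 ± 95.2 TPM and Atp5a1 at 675 ± 75.1 TPM. All 4 enzymes of the malate-aspartate shuttle were high, with Mdh2 at 336 ± 39.3 TPM and Mdh1 at 231 ± 31.2 TPM, beside 173 ± 14.1 TPM for Slc25a12 and 123 ± 13.3 TPM for Slc25a11.

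Of the other routes into the matrix, the pyruvate carrier subunits Mpc1 and Mpc2 were at 161 ± 4.24 and 115 ± 18.8 TPM. The carnitine acyltransferases Crat and Cpt1b, at 147 ± 9.09 and 85.8 ± 4.93 TPM, stood above the carnitine carrier Slc25a20 at 27.0 ± 0.481 TPM. All 9 genes for the import of carrier proteins were at TPM of at least 1, led by Timm8b at 92.2 ± 8.02 TPM and Timm13 at 54.1 ± 1.03 TPM. Of the 8 calcium uniporter and exchange genes 7 were, with Smdt1 at 56.6 ± 4.26 TPM and Letm1 at 27.3 ± 1.13 TPM. The 4 mitochondrial ABC transporters were, with Abcb8 at 13.8 ± 1.20 TPM, and 3 of 5 sideroflexins were, led by Sfxn3 at 9.24 ± 1.89 TPM and Sfxn5 at 2.03 ± 0.0212 TPM. Genes of the same fold named outside the Slc25 symbols were led by Mtch2, of the outer membrane, at 58.4 ± 0.0990 TPM. Its close TPM values came from 2262 and 2028 counts, with a log2 ratio of -0.12 (-0.21 to -0.03) after scaling. The muscle uncoupling protein Ucp3 followed at 36.5 ± 5.75 TPM. Ucp3 was lower in library 2, from 2801 to 1920 counts, with a log2 ratio of -0.51 (-0.59 to -0.42) that stayed within 1.5-fold.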

How the data were processed

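Total RNA libraries from gastrocnemius were sequenced by the authors, with a directional kit and ERCC spike-ins per the labels. The deposited read-me gives mm10 and GENCODE M21 as the reference. Which software ran, and whether it counted by strand, are not given in the sources used here. Per the file headers, the tables with RSEM columns (first quantifier) hold expected counts and TPM, and those with kallisto columns (second quantifier) hold estimated counts and TPM. The deposited TPM include the posterior mean TPM used as an alternative. Expected counts were rounded for ratios.

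The gene tables list 55536 genes, of which 86 are not in the second quantifier's tables and were left out, as were 26248 entries with numeric identifiers holding 1 and 0 counts. Spike-ins held 0.479% and 0.504% of counts. Levels used deposited TPM. Ratios between libraries used counts scaled by TMM (edgeR 4.0.16), with Clopper-Pearson 95% intervals, over genes whose mean TPM reached 1 and whose summed count reached 100, and genes past 1.5-fold were counted. The ratio step was tested on simulated counts with counting noise alone and known changes, which does not cover other variation between libraries. With 1 group of 2 libraries no p-value was computed. DESeq2 1.42.0 size factors, spike-ins, the second quantifier, other filters and leaving out a library served as alternatives. Gene coordinates, exons and transcript sequences came from GENCODE M21 (mm10) and promoters from RefSeq (GRCm38.p6). Reads of CAST alleles were assigned against mm10, and the effect on single genes was not tested.

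The members, role lists, pathway lists and markers were chosen with earlier results of these data known. All members could be named, with the 2 highest genes of each role list and any member past 1.5-fold in full, and at most 2 genes, the highest, of each pathway list; a few genes that this rule or the lists hold are counted but not reported by name here. Genes named in the marker lists, Slc25a12 transcripts and the Slc25a47 start region were described after their values were seen.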

Additional observations from a re-analysis of the deposited data

How the results depend on the processing

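No paired analysis was possible because the libraries form 1 group. Ratios between libraries could not be recomputed without a library. Of the alternatives to the main results, 37 gave values within the SD of the 2 libraries or within 1.5 times the count, and 23 did not. For values with an SD, leaving out 1 of 2 libraries always falls within it, so those alternatives could not differ and carry no weight. For the median ratio between libraries, any change in value was counted as a difference. At TPM of at least 5 in both libraries, 21 members passed. The family's percent of nuclear protein-coding TPM was 0.480 by the second quantifier, 0.413 by expected counts and 0.215 of the TPM of all genes. The percent of the family in Slc25a3 was 19.2 by the second quantifier, 19.7 by posterior mean TPM and 13.9 by expected counts, and the percent of ADP/ATP carriers in Slc25a4 was 99.0 by expected counts. The leading Slc25a3 transcript held 79.8% by the second quantifier. The log2 ratio of Slc25a12 over Slc25a13 was 7.99 by posterior mean TPM, 6.98 with 1 added to TPM, 9.27 by expected counts and 6.87 with protein_coding transcripts alone.

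Members past 1.5-fold between libraries numbered 3 by deposited TPM (Slc25a10, Slc25a24, Slc25a47, with 7.46% of all genes) and 3 with a summed count of at least 10 and no TPM minimum (Slc25a13, Slc25a2, Slc25a47, with 16.0% of all genes). On TMM-scaled counts with the main filters, 0 lay past 2-fold. The median log2 ratio of members was -0.0064 with DESeq2 size factors, -0.063 with spike-in scaling, 0.17 by deposited TPM, 0.0020 by the second quantifier and 0.014 with the low count filter; over all genes it was -0.0062, -0.063, 0.17, 0.014 and 0.0027. Slc25a47 kept its direction in all 5 alternatives, at 0.79 to 1.12. They reuse the same reads, and size factors and spike-ins move every gene alike, so they are no independent check of that direction. Over protein_coding transcripts alone the interval spanned 0. Leading transcripts that differ between quantifiers numbered 3 to 4 when 1 library was left out. The percent of the family's TPM not in protein_coding transcripts was 8.73 by the second quantifier. The cause of these shifts was not tested. Depth limits members under about 100 counts, whose intervals in ratio were wide.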

Other observations

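Slc25a25, an ATP-Mg/phosphate carrier, had the clearest difference between libraries among well-counted members. The counts assigned to its transcripts did not move alike, and how reads that fit several of them were split was not tested. Slc25a25-205 had 1093 counts in library 1 and 1500 in library 2 by the first quantifier, while Slc25a25-203 had 676 and 649. By the second quantifier Slc25a25-205 had 454 and 1236 estimated counts and Slc25a25-203 had 727 and 717. Over the same libraries Slc25a25-201 went from 862 to 445 estimated counts by the second quantifier, and from 68.8 to 40.4 expected counts by the first. The share of TPM in Slc25a25-205 differed between the quantifiers, at 42.0% and 49.8% by the first and 15.3% and 36.0% by the second.

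Slc25a24, another ATP-Mg/phosphate carrier, had a higher TPM in library 2 at nearly equal counts, at 0.69 and 1.58 TPM from 70 and 73 counts. The coding Slc25a24-201 held 0.69 and 0.68 TPM, and Slc25a24-202, a transcript of 667 bases typed nonsense_mediated_decay, held 0 and 0.90 TPM from 0.06 and 13.4 counts. The gene's effective length, to which TPM is relative, was 3317 bases in library 1 and 1760 in library 2.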
